A study of Homo sapiens with 24 samples.

Results

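The genes described here encode the subunits, activators, inhibitor and assembly chaperones of the proteasome, and were followed through a knockdown of PRKCQ in T cell lymphoma lines. They were picked by symbol, as every row whose name is PSM, a letter from A to G and a number, which gave 48 of the 58780 genes listed in the TPA comparison. This rule was proposed with earlier results of these data known. Of these, 46 have a p-value in the DMSO comparison and 47 in the TPA comparison. The DMSO comparison lists only 13025 genes, and why others are absent from it is not given in the sources used here. Within the 48, the genes PSMB8, PSMB9, PSMB10, PSME1 and PSME2, which encode the immunoproteasome and its activator PA28, were set beside the other 43.

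PRKCQ encodes protein kinase C theta, a kinase that relays T cell receptor signals to transcription factors such as NF-kappaB. MyLa, a line derived from mycosis fungoides, and HuT 78, a line derived from Sézary syndrome, carried either a non-targeting control hairpin (NTC) or a hairpin against PRKCQ (shPRKCQ), and each was given DMSO, the vehicle, or the phorbol ester TPA at 10 ng/ml for 24 h. Doxycycline at 1 µg/ml, given from 72 h or more before treatment, set off the knockdown. The labels do not say whether NTC cells received the drug, so the hairpin and the drug cannot be told apart if they did not. Each of the 8 groups has 3 libraries, 24 in all, and the values are the authors' own comparisons of 6 shPRKCQ with 6 NTC libraries, with MyLa and HuT 78 pooled, for each treatment. The tables hold no value per library, no value per line and no expression level, so depth is unknown and neither the spread between replicates nor the effect in each line can be shown. A fold change in bulk RNA cannot tell fewer cells from less RNA per cell. PRKCQ sets the direction, with negative read as lower under the hairpin: it stood at -2.11 in DMSO and -2.08 in TPA by the authors' deposited tables (adjusted p = 5.61e-14 and 1.67e-15). Among 8 T cell marker genes, CD3D, CD3G and TRAC have a p-value in the DMSO comparison and all 8 have one in TPA, none with an adjusted p under 0.05; the tables give no levels for them.

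The proteasome degrades proteins tagged with ubiquitin. Its 20S core is a barrel with outer alpha rings, which gate the entrance, and inner beta rings, in which PSMB5, PSMB6 and PSMB7 are the catalytic subunits. The 19S regulator caps the barrel, and its ATPases unfold substrates while non-ATPase subunits bind and remove ubiquitin. In lymphocytes, and in other cells under interferon gamma, PSMB8, PSMB9 and PSMB10 take the places of PSMB5, PSMB6 and PSMB7 in new particles, and PSME1 and PSME2 form the ring PA28; these forms shift the peptides that reach MHC class I molecules.

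Promoter sequence was not used in choosing the genes and was compared next. The interferon-stimulated response element (ISRE), searched as GAAA, any 2 bases and GAAA again on both strands from 250 bases before to 50 after each RefSeq start (GRCh38.p14), lies in 3.57% of 35116 such windows. RefSeq windows were found for 42 of the 48 genes, and 7 of them hold the element in at least 1 window: 4 of the 5 immunoproteasome genes and 3 of 37 others. The sites are shown because this element is where factors activated by interferon are known to bind, with the element in capitals and 10 bases on each side, in the direction of the gene.
PSMB8: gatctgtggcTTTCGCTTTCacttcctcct
PSMB10: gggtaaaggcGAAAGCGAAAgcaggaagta
PSME1: gccctaccgcTTTCGCTTTCccttcgcggt
PSME2: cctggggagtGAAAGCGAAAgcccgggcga
PSMG4: ttccggggccGAAAGCGAAAgcgcgctcgg
PSMB4: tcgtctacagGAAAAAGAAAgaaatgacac
PSMA4: atagtgaagaGAAAATGAAAggagagcgcc
These stretches lie at chr6:32844032-32844061 (minus strand), chr16:67936852-67936881 (minus), chr14:24136189-24136218 (plus), chr14:24146619-24146648 (minus), chr6:3258904-3258933 (plus), chr1:151399495-151399524 (plus) and chr15:78540155-78540184 (plus), in the order listed. Counted from the start of transcription, the element lies between positions -33 and 15 in PSMB8, PSMB10, PSME1, PSME2 and PSMG4, and begins at -68 in PSMB4 and -240 in PSMA4. In PSMB8 and PSME1 it reads on the opposite strand to the gene. On its own strand the element has the same letters, GAAAGCGAAA, in 5 of the 7 genes, and 0.0997% of all windows hold these letters. PSMB9 has no match in its window, which says only that these letters are not there.

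Other motifs were searched in the same windows, again on both strands. The core of the antioxidant response element, TGACNNNGC, which NFE2L1 and NFE2L2 bind, lies in 13.3% of all windows and in a window of 15 of the 42 genes. These are 3 of the 5 immunoproteasome genes, PSMB9, PSME1 and PSME2, and 12 of the 37 others. Examples among the others are PSMB3, a structural beta subunit, and PSMD12, a 19S lid subunit. They lie at chr17:38752627-38752655 (plus strand) and chr17:67366724-67366752 (minus strand), with the core in capitals.
PSMB3: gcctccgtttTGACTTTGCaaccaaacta
PSMD12: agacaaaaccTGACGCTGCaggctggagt
The sequence CCAAT lies in 34.6% of all windows and in those of 20 of the 42 genes, of which 1, PSMB9, is in the immunoproteasome set. The gamma-activated site TTCNNNGAA lies in 7.66% of windows and 8 of the 42 genes, and the NF-kappaB consensus in 11.3% and 2 of them, PSMA4 and PSMA8. A match is a description of the letters and was not tested for binding.

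No proteasome gene passed the test for a change with the knockdown in either treatment. Of 46 genes tested in DMSO, 0 had an adjusted p below 0.05 by the authors' deposited table, against 0.108% of all genes, and 0 were below 0.05 unadjusted, against 3.04% of all genes. Of 47 tested in TPA, 0 passed against 0.113% of all genes, and 0 had an unadjusted p under 0.05 against 3.99%. With so few calls among all genes, a count of 0 among 46 or 47 is near the background. Which of the tools in the submitters' notes made these p-values is not given in the sources used here. The smallest unadjusted p by the authors' deposited tables were those of PSME4, which encodes the activator PA200, in DMSO (0.14 on the log2 scale, p = 0.145) and PSMG4, a chaperone of 20S assembly, in TPA (-0.12, p = 0.21), both with an adjusted p of 1.00.

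The errors behind these values allow a statement about size. A standard error was computed for each gene as the log2 fold change over the z that its p-value implies, and from it a 95% interval, called the implied interval below; it is in the scale of the authors' fold changes and would be too narrow if these were shrunken. The interval of every tested proteasome gene lay within a change of 2-fold, 46 of 46 in DMSO and 47 of 47 in TPA, as did 93.0% and 81.9% of all genes. It lay within 1.5-fold for 42 of 46 in DMSO and 44 of 47 in TPA, against 71.2% and 51.3% of all genes; the TPA table includes many more genes with wide errors. The exceptions were PSMA3, PSMD1, PSMB9 and PSMB10 in DMSO and PSMA8, PSMB8 and PSMB9 in TPA. PRKCQ, by comparison, was at 23.1% of the NTC level in DMSO and 23.7% in TPA, computed from the authors' deposited tables.

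**Figure D1:**
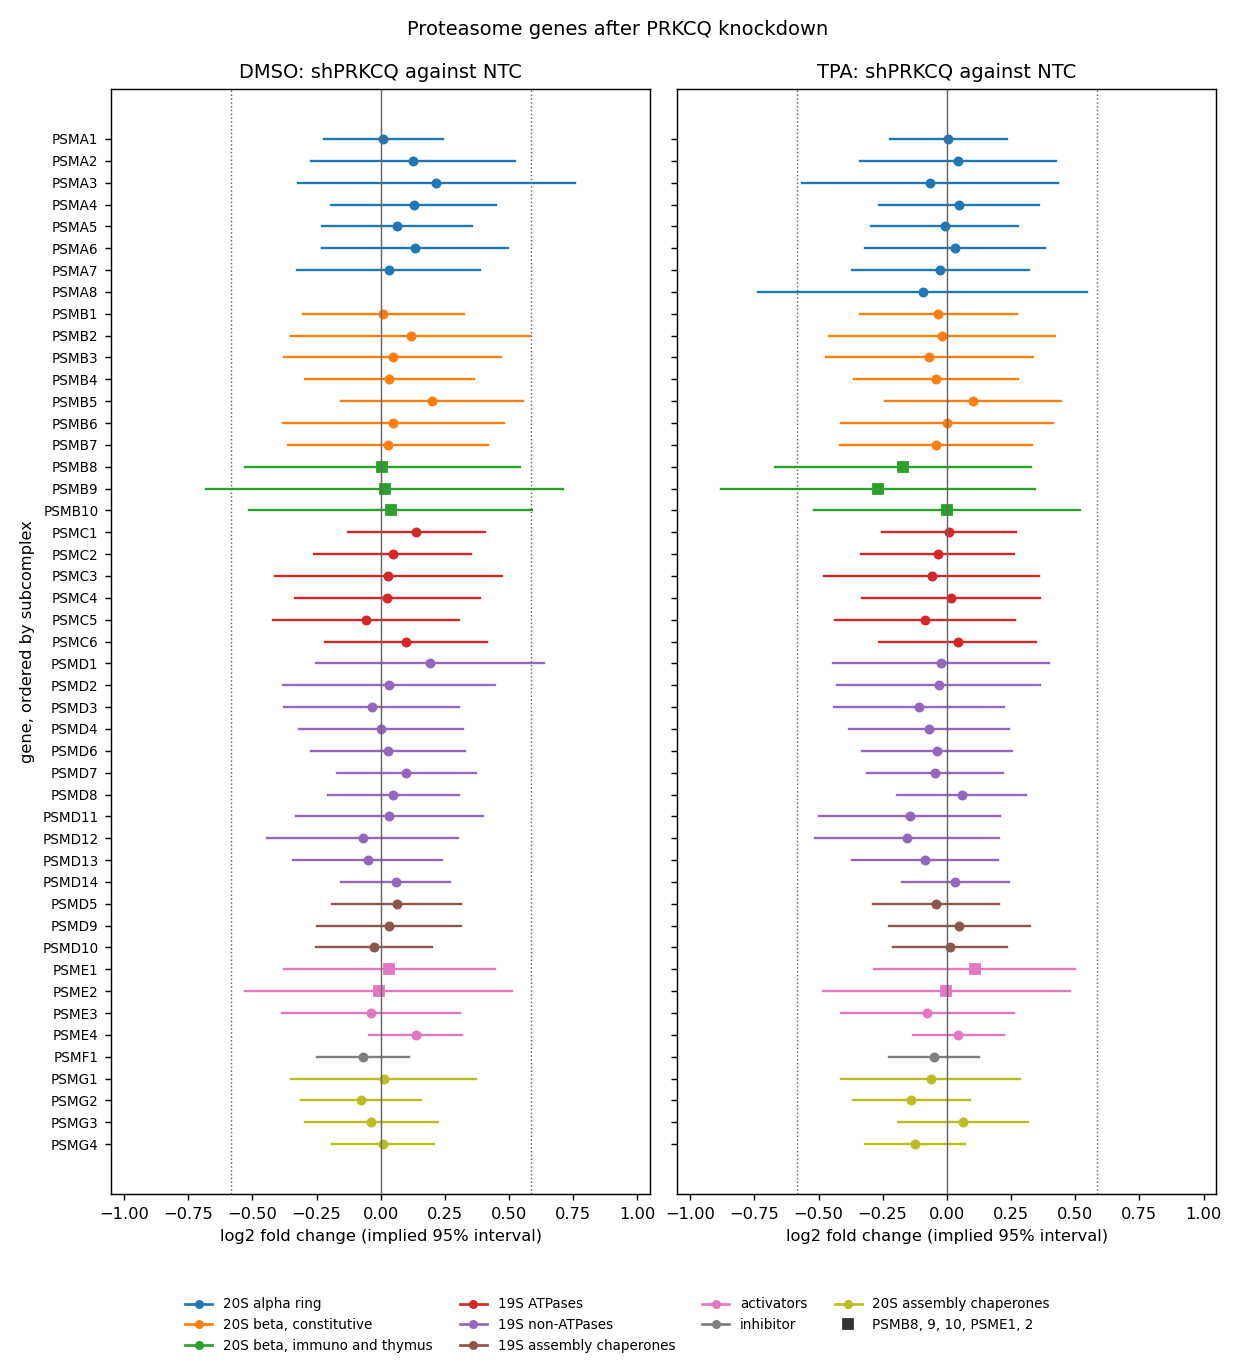
Log2 fold change of each tested proteasome gene in shPRKCQ against NTC cells (x axis), in DMSO (left) and TPA (right), with genes on the y axis ordered and coloured by subcomplex; lines are implied 95% intervals, squares mark PSMB8, PSMB9, PSMB10, PSME1 and PSME2, and dotted lines mark 1.5-fold. All intervals include 0, and the widest is that of PSMB9 in DMSO (-0.68 to 0.71).

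The replacement subunits of the immunoproteasome lay close to 0 in vehicle. PSMB8 (ENSG00000204264.9, chromosome 6, 32840717 to 32844703, minus strand, GRCh38), which takes the place of PSMB5, was at 0.0059 in DMSO and -0.17 in TPA by the authors' deposited tables. These are 100.4% of the NTC level (implied interval 69.3% to 145.5%) and 88.8% (62.9% to 125.4%). PSMB9 (ENSG00000240065.7, chromosome 6, 32844136 to 32859585, plus strand), which takes the place of PSMB6, was at 0.015 and -0.27 by the authors' deposited tables. In TPA this is the lowest value of any proteasome gene, 82.9% of the NTC level with an interval of 54.3% to 126.7% (unadjusted p = 0.387). PSMB10 (ENSG00000205220.11, chromosome 16, 67934502 to 67937087, minus strand), which takes the place of PSMB7, was at 0.039 and 0.0010 by the authors' deposited tables. PSMB8 and PSMB9 lay below 0 under TPA and PSMB10 did not, each with an interval that includes both directions. PSMB11, the beta subunit of the thymus proteasome, has no fold change in the TPA table and no row used in DMSO.

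The PA28 genes lay near or above 0 in both treatments. PSME1 (ENSG00000092010.14, chromosome 14, 24136158 to 24138967, plus strand), the alpha subunit of PA28, was at 0.034 in DMSO and 0.11 in TPA by the authors' deposited tables, the highest TPA value of any proteasome gene. PSME2 (ENSG00000100911.15, chromosome 14, 24143362 to 24147570, minus strand), the beta subunit, was at -0.0070 and -0.0020 by the authors' deposited tables. Its intervals were 69.4% to 142.7% and 71.5% to 139.5% of the NTC level.

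As a set, the 5 immunoproteasome genes had a median of 0.015 in DMSO, between -0.0070 and 0.039, and a median of -0.0020 in TPA, between -0.27 and 0.11. The other 41 genes tested in DMSO had a median of 0.032 and the other 42 in TPA a median of -0.035, and all genes tested had medians of 0.0075 and 0.011. With PSMB8, PSMB9 and PSMB10 alone, the TPA median was -0.17 and the DMSO median 0.015, and the mean over the 5 genes in TPA was -0.067. The implied standard errors of the 5 genes were larger, with a median of 0.27 in DMSO against 0.16 for the other proteasome genes and 0.17 for all genes. In TPA these medians were 0.25, 0.16 and 0.22. The interval lay within 1.5-fold for 3 of 5 immunoproteasome genes in each treatment, and for 39 of 41 and 41 of 42 others. By these medians and counts, the fold changes of this set had larger implied errors than the rest of the family. Whether spread between replicates or a difference between the pooled lines widened these errors was not tested.

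Only RNA was measured, not the makeup of proteasome particles. Subunit exchange was described at that level by the difference between each replacement subunit and the subunit it displaces. The tables do not give how 2 genes vary together over libraries, so this difference has no interval or test. In DMSO the ratio of PSMB8 to PSMB5 in shPRKCQ cells was 87.5% of that in NTC cells, that of PSMB9 to PSMB6 was 97.7% and that of PSMB10 to PSMB7 was 101%, computed from the authors' deposited table. In TPA these were 82.9%, 82.9% and 103%. The low PSMB8 ratio in DMSO comes with a high PSMB5, the chymotrypsin-like subunit (ENSG00000100804.18, chromosome 14, 23016543 to 23035230, minus strand), at 0.20 by the authors' deposited table and an interval of 89.8% to 146.7% of the NTC level. In TPA PSMB5 was at 0.10, PSMB6 at 0.00073 and PSMB7 at -0.042 by the authors' deposited table, and in DMSO PSMB6 and PSMB7 were at 0.049 and 0.027.

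**Figure D2:**
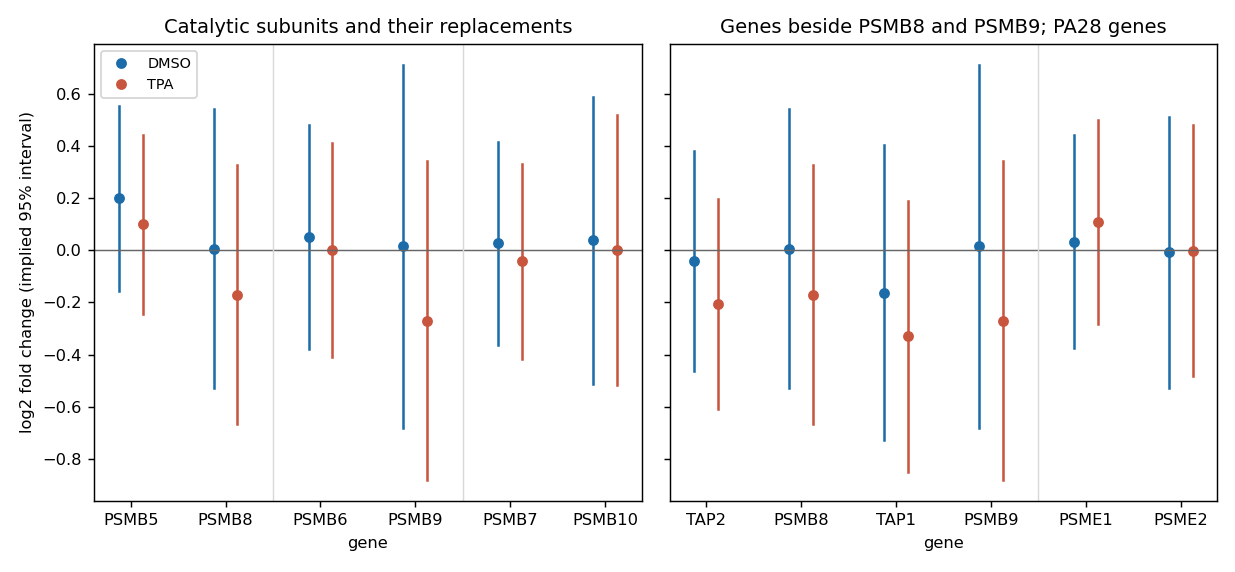
Log2 fold change in shPRKCQ against NTC cells (y axis) with implied 95% intervals, blue for DMSO and red for TPA, for each displaced catalytic subunit beside its replacement (left) and for PSMB8 and PSMB9 beside their neighbours TAP2 and TAP1, with the PA28 genes (right). PSMB8, PSMB9, TAP1 and TAP2 lie below 0 under TPA, at -0.17, -0.27, -0.33 and -0.21, and every interval includes 0.

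PSMB8 and PSMB9 lie in the class II region of the MHC, interleaved with TAP1 and TAP2, the subunits of the transporter that carries proteasome peptides to MHC class I. In GENCODE release 29 the PSMB9 gene overlaps PSMB8 by 568 bases, on the opposite strand, and 1936 bases separate PSMB8 from TAP2. It overlaps TAP1 (chromosome 6, 32845209 to 32853978, minus strand) by 8770 bases, which is all of TAP1. The RefSeq start of PSMB9 behind its promoter matches lies beyond 32854062, past the end of TAP1, so the 2 annotations differ here. The sequencing kit was stranded, and the GENCODE overlaps are between opposite strands. Whether strand was used in assigning reads is not given in the sources used here, so the values of PSMB8, PSMB9 and TAP1 may not be separate measurements. TAP1 stood at -0.16 in DMSO and -0.33 in TPA and TAP2 at -0.041 and -0.21 by the authors' deposited tables, with unadjusted p of 0.574, 0.214, 0.85 and 0.317. PSMB8-AS1, an antisense RNA at PSMB8, was at -0.022 and -0.12 by the authors' deposited tables. All 4 coding neighbours were lower in TPA than in DMSO, and none passed the test in either. So were 39 of the 46 proteasome genes and 52.5% of all genes lower in TPA, so this direction is not particular to the region.

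In the 20S core, all 7 alpha subunits tested in DMSO were above 0, with a median of 0.13. The highest was PSMA3, at 0.22 by the authors' deposited table (unadjusted p = 0.433), and the lowest PSMA1, at 0.011. In TPA the same 7 genes lay between -0.066 for PSMA3 and 0.046 for PSMA4 by the authors' deposited table. PSMA8, the testis form, was at -0.095 in that table and has the widest TPA interval, 60.1% to 146.0% of the NTC level. The 7 constitutive beta subunits were also all above 0 in DMSO, between 0.011 for PSMB1 and 0.20 for PSMB5 by the authors' deposited table, with a median of 0.046. In TPA 5 of the 7 were below 0, and the lowest was PSMB3 at -0.068 by the authors' deposited table. No gene of either ring passed the test in a treatment in which it was tested.

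In the 19S regulator, 5 of 6 ATPases were above 0 in DMSO, and their median was 0.038. PSMC1 was the highest at 0.14 and PSMC5 the lowest at -0.057 by the authors' deposited table; in TPA PSMC6 was the highest at 0.042 and PSMC5 again the lowest at -0.086. PSMC1 has 13 annotated pseudogenes, the most of any of the 48; how reads shared with them were assigned is not given in the sources used here. Of 11 non-ATPase subunits, 8 were above 0 in DMSO and 2 in TPA, with medians of 0.032 and -0.047. PSMD1, the large scaffold subunit, was at 0.19 in DMSO and -0.024 in TPA by the authors' deposited tables. PSMD12 was the lowest of the 11 in both, at -0.070 and -0.16 by the authors' deposited tables (unadjusted p = 0.714 and 0.394), and PSMD8 the highest in TPA at 0.057. PSMD14, the deubiquitinase of the lid, had the smallest implied error of the 19S subunits, at 104.1% of the NTC level in DMSO (89.9% to 120.5%) and 102.3% in TPA (88.6% to 118.1%).

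Chaperones and regulators spread around 0 as well. Of the 19S assembly chaperones, PSMD5 was at 0.062 in DMSO and -0.043 in TPA, PSMD9 at 0.031 and 0.048 and PSMD10 at -0.026 and 0.012 by the authors' deposited tables. The 20S assembly chaperones had medians of -0.014 and -0.094, and PSMG2 was their lowest in both treatments, at -0.077 and -0.14 by the authors' deposited tables (unadjusted p = 0.517 and 0.236). PSMG1, its partner, was the highest in DMSO at 0.011, and PSMG3 the highest in TPA at 0.062. PSME3, the nuclear activator PA28 gamma, was at -0.038 and -0.076 and PSME4 at 0.14 and 0.044 by the authors' deposited tables. PSMF1, the proteasome inhibitor PI31, was at -0.070 and -0.050 by the authors' deposited tables, with the narrowest intervals of all 48 genes, 84.2% to 107.8% and 85.6% to 109.1% of the NTC level.

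Signs leaned in opposite directions in the 2 treatments while sizes stayed small. In DMSO 36 of 46 proteasome genes were above 0, against 52.3% of all genes, and in TPA 17 of 47 were, against 53.0%. After subtraction of the median of all genes tested in the same treatment the counts were 34 and 13. These backgrounds are unlike sets, of 13007 genes in DMSO and 19417 in TPA. Over the 13007 genes of both, the TPA median was 0.0017 rather than 0.011, so the count of 13 depends on the set. Of these 13007 genes, 6592 were above 0 in TPA. The middle of the distribution was narrow: the quartiles were 0.0065 and 0.063 for the 46 genes in DMSO and -0.083 and 0.093 for all genes. The values of all members come from the same libraries, so the counts describe a lean and are no test of it. Across the 46 genes, the values in DMSO and TPA were related with r = 0.44 (Pearson) and rho = 0.50 (Spearman), beside 0.38 and 0.40 over all 13007 genes tested in both; these are descriptions across genes, which are not independent replicates.

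**Figure D3:**
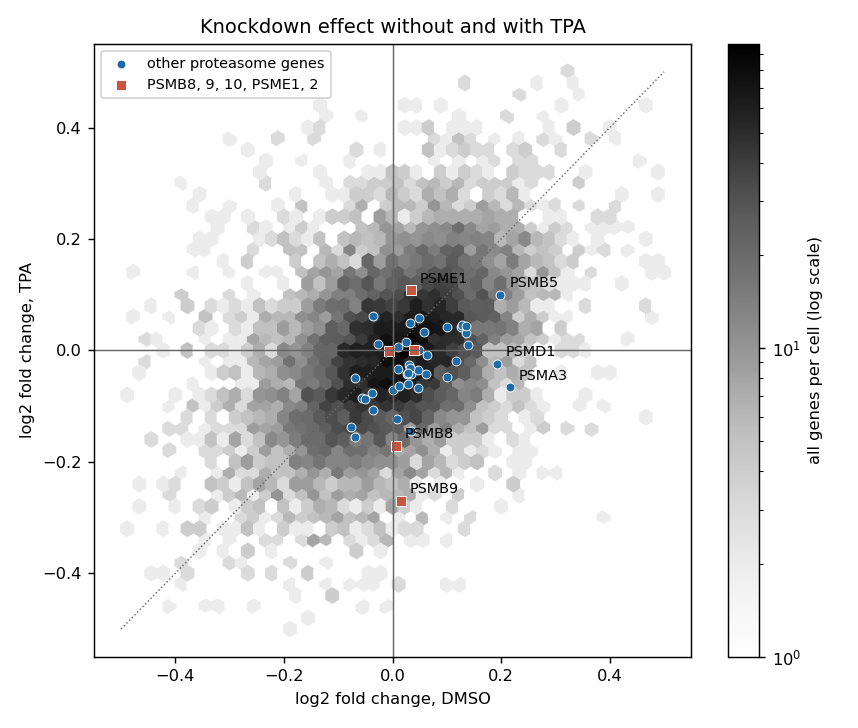
Log2 fold change in TPA (y axis) against DMSO (x axis) for 46 proteasome genes over the density of all genes in grey, with 524 genes beyond 0.5 left out; the dotted line marks equal values. Most blue points (other proteasome genes) lie below the dotted line, and PSMB9 is the lowest red square.

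Whether the knockdown effect differed between treatments was tested gene by gene, as the TPA minus DMSO difference over the implied standard errors of both, across all 13007 genes with Benjamini-Hochberg adjustment. Of the 46 proteasome genes 0 passed and 0 had an unadjusted p under 0.05, while among all genes 0% passed and 0.438% had an unadjusted p under 0.05. Over all genes the z of this difference had a robust SD of 0.579, narrower than its errors imply, so the test is conservative. A count of 0 therefore says little about these genes. With z rescaled by this SD, 0 of the 46 passed as well. PSMG4 came nearest, with a difference of -0.13 and an implied interval of -0.41 to 0.15. The difference was below 0 for 39 of the 46, against 52.5% of all genes, with a median of -0.071 against -0.0084. By group it was below 0 for all 7 alpha subunits, all 7 constitutive beta subunits, all 6 ATPases, 10 of 11 non-ATPases and 3 of 5 immunoproteasome genes. It was below 0 for 3 of 4 20S assembly chaperones, 2 of 4 activators (PSME1 and PSME2 were above), 1 of 3 19S assembly chaperones, with a median of 0.017, and not for PSMF1, at 0.020. PSMB9 and PSMA3 had the lowest differences, -0.28 for each, with intervals of -1.21 to 0.64 and -1.02 to 0.45. PSMG3, at 0.098, and PSME1, at 0.074, had the highest. The test treats the errors of the treatments as independent. No library is in both tables, but the implied standard errors of the 46 genes had the same rank order in both (Spearman rho of 1), and whether 1 fit served both tables is not given in the sources used here.

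**Figure D4:**
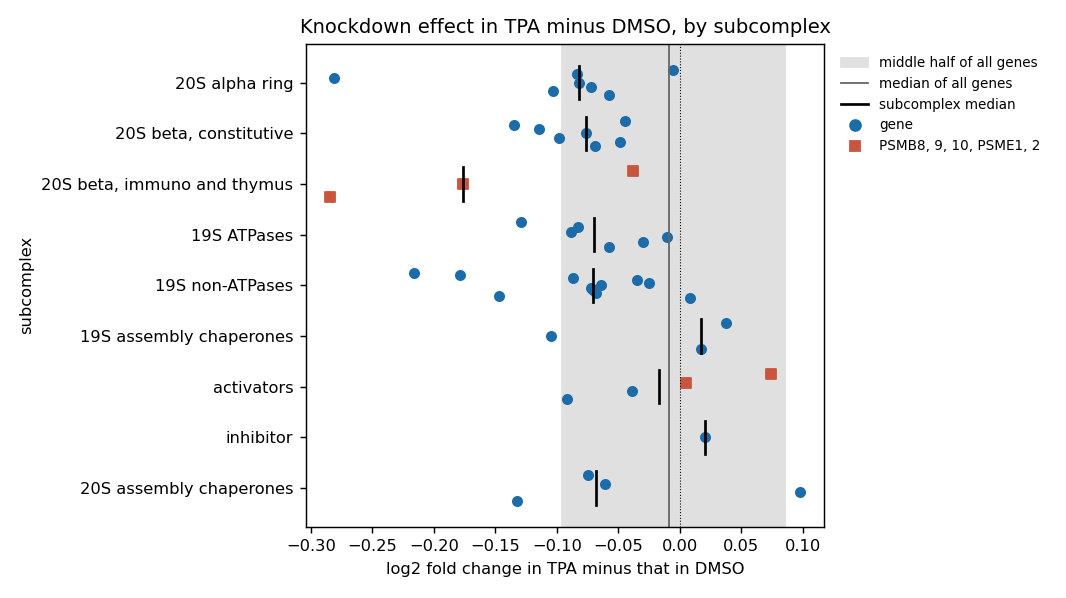
Log2 fold change in TPA minus that in DMSO (x axis) for 46 proteasome genes by subcomplex (y axis); points are genes, squares the immunoproteasome set, black bars subcomplex medians, the grey band the middle of all genes between the quartiles and the grey line their median. The 20S and 19S subunit medians lie left of the median of all genes, at -0.082 for the alpha ring and -0.076 for the constitutive beta subunits.

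The surrounding pathway was read from lists of related genes. Of 10 accessory proteins of assembly, import and deubiquitination, 6 were above 0 in DMSO and 3 in TPA, with medians of 0.045 and -0.051, and none passed. Of all genes, 52.3% were above 0 in DMSO and 53.0% in TPA. AKIRIN2, which brings proteasomes into the nucleus, was their highest in DMSO at 0.25 (unadjusted p = 0.0946) and PAAF1 their lowest at -0.029 by the authors' deposited table. POMP, the maturation factor of the 20S core, was the highest in TPA at 0.17 and USP14, a deubiquitinase on the 19S regulator, the lowest at -0.21 by the authors' deposited table. Of 8 genes that control proteasome transcription or its activation, 0 passed, with medians of -0.0029 and -0.027. NFE2L1, the factor that restores proteasome genes when the proteasome is inhibited, was at -0.18 in DMSO and -0.11 in TPA by the authors' deposited tables (unadjusted p = 0.47 and 0.644). VCP, the segregase that extracts ubiquitinated proteins, was the highest of the 8 in DMSO at 0.10, and MAFF, a small partner of the NFE2L factors, in TPA at 0.21. The 6 shuttle genes that deliver ubiquitinated proteins had medians of -0.0061 and 0.00050, and 0 passed. They ran from UBQLN1 at -0.038 to UBQLN4 at 0.033 in DMSO and from UBQLN2 at -0.082 to NUB1 at 0.12 in TPA by the authors' deposited tables.

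Upstream of the immunoproteasome, 11 genes of interferon control were tested in DMSO and 13 in TPA, and 0 passed in either. IFNG, interferon gamma itself, was at -1.59 in TPA by the authors' deposited table, 33.3% of the NTC level, with an unadjusted p of 0.00259 and an adjusted p of 0.43; it has no DMSO value used here. Of the other genes of the list, IRF1 stood at -0.0014 in DMSO and -0.011 in TPA and NLRC5, the activator of MHC class I genes, at 0.12 and 0.098 by the authors' deposited tables. IRF9 was the lowest of the list in DMSO at -0.10 and JAK1 the highest in TPA at 0.21 by the authors' deposited tables. The part of IFNG in the values of PSMB8 and PSMB9 was not tested.

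Downstream, the 13 genes of class I peptide handling were all below 0 in DMSO, with a median of -0.061, and 11 were below 0 in TPA, with a median of -0.097. Among all genes tested, 6203 of 13007 were below 0 in DMSO and 9132 of 19417 in TPA. The genes of the list share libraries and were listed with earlier results known, so these counts are no test of a lean. None passed. TAPBP, the chaperone that holds TAP to MHC class I, was the lowest in DMSO at -0.34 (unadjusted p = 0.108) and PDIA3 the highest at -0.0094 by the authors' deposited table. In TPA TAP1 was the lowest at -0.33 and ERAP2, a trimming peptidase, the highest at 0.052 by the authors' deposited table.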

How the data were processed

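Poly(A) RNA of MyLa and HuT 78 libraries was sequenced with a stranded kit, per the labels' protocols. Per the submitters' processing notes, the build was GRCh38 and DESeq2 1.18.1, RSEM 1.3.0 and STAR 2.5.3a were used, with no role stated. The 2 deposited tables hold the authors' log2 fold change, p-value and adjusted p-value per gene, per the file headers. What model, covariates, read assignment and shrinkage entered is not given in the sources used here. The tables hold no library values, so the authors' adjusted p under 0.05 was the call, and no count test was run. From them were computed z-values, implied standard errors, 95% intervals and a difference test over all 13007 genes of both tables. The code was run on simulated fold changes with independent errors of exactly the assumed size. That run cannot show how well the test is scaled on these data. Positions come from GENCODE release 29 and promoter windows from RefSeq (GRCh38.p14). Members, related lists and motifs were chosen with earlier results of these data known. Named are the immunoproteasome genes, PSMB5 to PSMB7, members with an unadjusted p under 0.05, those without values, and the extremes of each subcomplex or list; PSMD14, TAP1, TAP2, IRF1, the TPA value of NLRC5 and the antisense and pseudogene rows were named after their values were seen. Python 3.11.15, numpy 2.4.6, scipy 1.17.1, pandas 2.3.3 and matplotlib 3.10.9 were used. Nothing in the labels says that replicates came from separate cultures, so p-values may measure technical spread. With MyLa and HuT 78 pooled and covariates unknown, the error may also hold the difference between the lines, which was not tested. Over all genes 3.04% in DMSO and 3.99% in TPA had an unadjusted p under 0.05, and z had a robust SD of 0.753 and 0.84. These p-values thus run conservative, which limits what an absence of calls can show.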

Additional observations from a re-analysis of the deposited data

How the results depend on the processing

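Counts of called proteasome genes stayed at 0 in both treatments with a threshold of 0.1, with adjustment over every gene with a p-value or over genes of both tables, and with p-values rescaled by the robust SD of z (0.753 in DMSO and 0.84 in TPA). A minimum fold change could not alter a count of 0. The tables give no error for a median over genes, so how firm these are could not be judged. Over the alternatives, the centre of the immunoproteasome genes ran from 0.0077 to 0.019 in DMSO and from -0.17, with the beta subunits alone, to -0.0020 in TPA. That of the other proteasome genes ran from 0.025 to 0.046 and from -0.046 to -0.025. With the median of all genes subtracted, an alternative that was chosen after seeing the data for the sign counts, 34 genes in DMSO and 13 in TPA were above 0, and 38 were lower in TPA. No paired analysis was possible because neither table has a value per library. For the same reason no replicate was left out. The limits set by depth are unknown.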

Other observations

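Pseudogenes and antisense RNAs named after proteasome genes gave no call either. GENCODE release 29 annotates 32 pseudogenes for 12 of the 48 genes, and PSME2P2, a copy of the PA28 gene PSME2, was at -0.070 in DMSO and 0.0097 in TPA by the authors' deposited tables. PSMC1P5 was at -0.44 in TPA (unadjusted p = 0.179), PSMD6-AS2 at 0.024 and -0.26, PSMA3-AS1 at 0.092 and 0.090 and PSMG3-AS1 at 0.075 and 0.11 by the authors' deposited tables. Of the 48 genes, 8 lie on chromosome 14: PSMA3, PSMA6, PSMB5, PSMB11, PSMC1, PSMC6, PSME1 and PSME2.

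The implied standard errors of the 2 tables ran together: over all 13007 genes their Spearman rho was 0.993, and over the 46 proteasome genes the TPA error was between 0.878 and 0.983 times the DMSO error, lowest for PSMB9.

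Markers of other cell types also had p-values, more of them in TPA than in DMSO. The DMSO comparison lists 13025 genes and that of TPA 58780. Of 4 B cell markers 1 had a p-value in DMSO and 3 in TPA, of 4 epithelial and stromal markers 1 and 3, and of 3 myeloid markers 0 and 1. None had an adjusted p under 0.05. The lowest unadjusted p was that of CD79B in TPA, at -1.10 by the authors' deposited table (unadjusted p = 0.000773). The other B cell markers tested were above 0, MS4A1 at 0.32 in TPA and CD79A at 0.36 in DMSO and 0.16 in TPA by the authors' deposited tables. KRT5, a keratin of epithelial cells, was at 0.77 in TPA by the authors' deposited table (unadjusted p = 0.0437). Among the T cell markers tested, 1 of 3 was above 0 in DMSO and 7 of 8 in TPA. Of all genes tested, 52.3% and 53.0% were above 0. CD7 was the highest T cell marker in TPA at 0.69 (unadjusted p = 0.0647), and CD5 was at 0.56 (unadjusted p = 0.0167). The part of these markers in the proteasome values was not tested.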
